A study of Mus musculus with 131 samples.

Results

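The genes described here encode the proteins of the cytosolic ribosome, measured in single cells of mouse blastocysts at E4.0. They were found by name among the 13927 genes of the expression table: a symbol of Rpl or Rps followed by a number, or Rplp0, Rplp1, Rplp2 or Rpsa, with names ending in a pseudogene suffix left out. The rule found 96 genes. Of these, 77 are the core genes, 46 of the large and 31 of the small subunit, 6 are paralogues that encode a near relative of a core protein, and 3 are retrocopies (Rps27rt, Rpl35rt and Rps23rg1). The other 10 carry a matching name but encode no ribosomal protein: 9 kinases of the S6 kinase families and Rps19bp1, which encodes a partner of the Rps19 protein. Fau, which encodes a ribosomal protein fused to a ubiquitin-like protein, falls outside the rule by name and is given beside it.

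The cells came from embryos made by embryo complementation, in which embryonic stem cells (ESCs) are placed into a host embryo. All are C57BL/6J: 40 GFP cells carry an Actin-GFP transgene and 55 RFP cells an Actin-RFP transgene, each transgene named for the widely active actin gene. The design text describes the injection of Actin-RFP ESCs into Actin-GFP 8-cell embryos for later embryos of the series, which makes RFP the colour of the injected ESCs and GFP that of the recipient embryo. No label names the embryo a cell was taken from, so each colour is 1 sample, values are given over cells, and no test between the colours was possible. DNA methylation around the genes' starts comes from 3 cultured populations with 1 bisulfite library each. These are Actin-RFP ESCs at passage p10, ESCs with the Gjb2 35delG deletion at p7, and wild-type embryonic fibroblasts of the mouse (MEF) at p2.

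A ribosome holds one copy of nearly every core protein, so the core genes are transcribed at high levels in growing cells and their output is matched across many chromosomes. Many of their messenger RNAs begin with a cytosine followed by a run of pyrimidines, the terminal oligopyrimidine (TOP) motif, through which the growth kinase mTOR and the protein Larp1 control their translation. The early embryo builds new ribosomes from the cleavage stages on, and both the epiblast, which forms the body, and the trophectoderm, which forms the placenta, divide rapidly at the blastocyst stage.

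The colours also differed in lineage markers, and this holds for every ratio of RFP over GFP cells below. The summed level of 12 epiblast markers had a median of 9351 CPM (a gene's reads scaled to the same total in every cell; range 131 to 25196) in RFP cells and 4782 CPM (2806 to 9055) in GFP cells, and 10 of the 12 had a log2 ratio of at least 1. Dppa5a alone was at 4943 CPM in GFP and 7126 CPM in RFP cells, and each of the other 11 was at 26.8 CPM or less in GFP cells. The sum of 14 trophectoderm markers was at 66.8 CPM (0.713 to 3690) in RFP cells and 11387 CPM (33.9 to 18146) in GFP cells, with all 14 at least 1 lower. That of 12 primitive endoderm markers was at 0.279 CPM (0 to 731) against 478 CPM (0 to 1857.5). Pdgfra, Sox7 and Cubn were at 0 in RFP cells and had reads in only 2, 1 and 2 of the 40 GFP cells. Pooled over GFP cells, Dab2 at 371 CPM and Gata6 at 111.5 CPM were the highest of the 12. Colour and lineage cannot be told apart in these ratios. Depth was 1996187 to 8315062 reads per GFP cell and 518064 to 9562072 reads per RFP cell. In 5 cells more than 10% of the reads came from mitochondrially encoded genes: GFP cell 27 and RFP cells 6, 14, 41 and 44. RFP cell 6 was the shallowest, with 62.0% mitochondrial reads. The mean log2 level of trophectoderm markers was above that of epiblast markers in 39 of 40 GFP cells. The exception was cell 27, at 1.04 and 2.78. Epiblast markers had the higher mean in 53 of 55 RFP cells, all but cells 6 and 22. The main values are given with and without these 5 cells where they differ.

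The annotated starts of some of the core genes show the TOP motif directly. RefSeq promoter records of the GRCm38.p6 build, which is the mm10 coordinate system of the files, were matched for 73 of the 96 genes and 57 of the 77 core genes. The following 30 bases run 5′ to 3′ along the gene, 15 before and 15 from the annotated start, with the unbroken run of C and T that opens the transcript in capitals. The first 6 were picked from the 13 of 57 core genes that open on a C and 4 more C or T.
Rpl35: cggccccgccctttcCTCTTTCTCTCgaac
Rpl38: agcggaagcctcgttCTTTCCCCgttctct
Rpl28: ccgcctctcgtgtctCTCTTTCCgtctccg
Rps6: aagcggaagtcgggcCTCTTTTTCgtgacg
Rps18: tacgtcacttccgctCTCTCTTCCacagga
Rps27: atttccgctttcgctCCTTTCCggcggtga
The next 4 are paralogues, whose annotated start opens on no such run.
Rps27l: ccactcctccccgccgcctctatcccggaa
Rpl22l1: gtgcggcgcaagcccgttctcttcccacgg
Rpl39l: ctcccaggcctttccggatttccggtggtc
Rpl36al: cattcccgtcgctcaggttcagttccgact
The last is a retrocopy, a gene derived from a reverse-transcribed messenger.
Rps27rt: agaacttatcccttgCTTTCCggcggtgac
These stretches lie at chr2:39005117-39005146 (minus strand) for Rpl35, chr11:114668565-114668594 (plus) for Rpl38, chr7:4792950-4792979 (plus) for Rpl28, chr4:86857353-86857382 (minus) for Rps6, chr17:33955651-33955680 (minus) for Rps18 and chr3:90213634-90213663 (minus) for Rps27. The paralogues lie at chr9:66946071-66946100 (plus) for Rps27l, chr3:28805493-28805522 (plus) for Rpl22l1, chr16:10170213-10170242 (plus) for Rpl39l and chr12:69184053-69184082 (minus) for Rpl36al, and Rps27rt at chr9:114982725-114982754 (minus). Rps27l has a second annotated start, not shown.

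A C followed by 4 bases that are each C or T, exactly at an annotated start, was found in 13 of the 57 core genes (22.8%) and in 2.90% of the 10857 genes of the expression table with a RefSeq start. It was found in none of the 6 paralogues, in none of the 8 genes of the non-ribosomal set with a start, and in 1 of 2 retrocopies, Rps27rt. The stretch at the start of Rps27rt shares 14 consecutive bases with that of Rps27. A run of at least 8 C or T between 10 bases before and 15 after the start was in 22 core genes (38.6%) against 11.4%. It was also in 1 of the 6 paralogues, Rpl22l1. The hexamer CGGAAG, the core recognised by ETS-family activators, was on either strand of the 300-base promoter record in 40 of 57 core genes (70.2%) against 33.2%. The heptamer AAGATGG, part of the motif of the factor YY1, was in 15.8% against 8.13%, and TATAAA, the TATA box, in 10.5% against 9.14%. A match is a string of letters, not a measured binding site, and a run a few bases off the annotated start is missed by the strict count. The 13 core genes with the strict motif had a median log2 ratio of RFP over GFP cells of 0.56 and the other core genes with a start one of 0.60 (44 genes), and the ranges of both sets overlapped.

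Core genes took a larger share of the reads in RFP cells. Pooled over cells it was 6.915% (6.912% to 6.917%, exact 95% interval of counting error only) in RFP cells and 4.56% (4.557% to 4.562%) in GFP cells. Cells ranged from 0.129% to 13.2% with a median of 6.67% among the 55 RFP cells, and from 2.62% to 11.6% with a median of 4.62% among the 40 GFP cells. The lowest RFP value was that of cell 6 and the highest GFP value that of cell 27, both above the mitochondrial limit. Without the 5 such cells the RFP range was 4.34% to 12.3% (median 6.64%, 51 cells) and the GFP range 2.62% to 6.18% (median 4.60%, 39 cells). Of the 55 RFP cells, 53 lay above the GFP median, and 1 of the 40 GFP cells lay above the RFP median, so the groups overlapped at their edges. A share is relative to the other RNA of the cell and says nothing of the amount per cell.

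**Figure D1:**
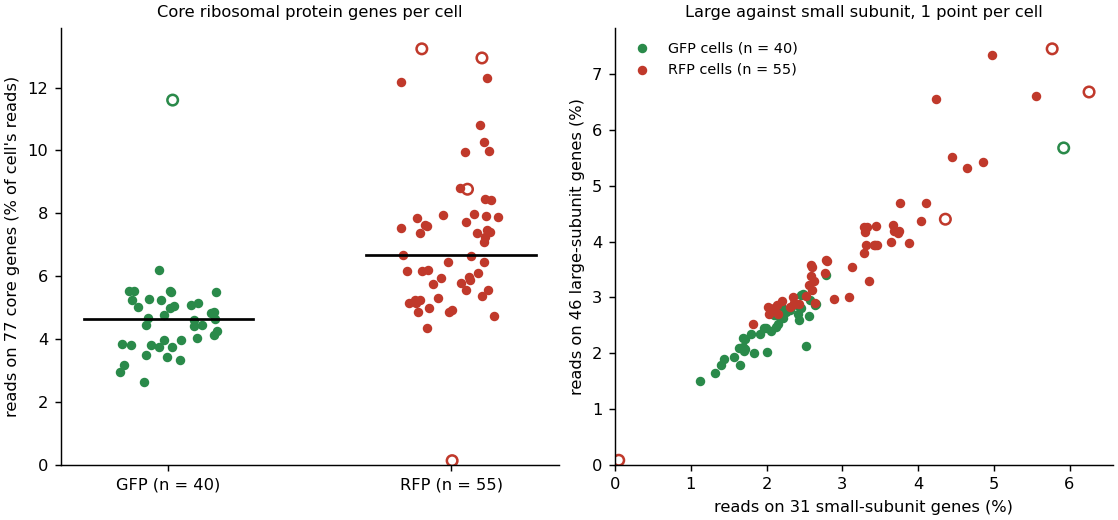
Left, percent of each cell's reads on the 77 core genes, 1 point per cell, with the median of each group as a black line. Right, the percent on the 46 large-subunit genes against that on the 31 small-subunit genes. Open circles are the 5 cells above 10% mitochondrial reads. The GFP cells centre on 4.62% and the RFP cells on 6.67%, and the points of both groups follow 1 line on the right.

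The shift was broad and small per gene. On pooled CPM + 1, the log2 ratio of the RFP to the GFP cells was above 0 for 72 of the 77 core genes and for 7571 of all 13927 genes. The median of the core genes was 0.56 against 0.08 over all genes of the table. The quartiles of the core genes were 0.40 and 0.79. Only 3 of 77 reached a ratio of 1, where 25% of all genes did, and 1 lay at or below -1, where 21.9% of all genes did. At least 0.5 was reached by 46 core genes (59.7%) against 37.1% of all genes, and 1 lay at or below -0.5 against 31.4%. Those of all genes were -0.81 and 0.997. Large-subunit genes had a median of 0.61 and small-subunit genes one of 0.55. In the authors' deposited table, the median log2 fold change of the core genes was 0.52 and 71 of 77 were above 0. Over all 13927 genes that median was 0, and 6402 were above 0. The count of core genes at 1 or more was 7 of 77 with the mean of the cells' CPM, where 25.5% of all genes were. It was 30 of 77 with the authors' scaling of cells, where 30.7% of all genes were. That scaling also moved the core median to 0.77, while the count at or below -1 stayed at 1.

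**Figure D2:**
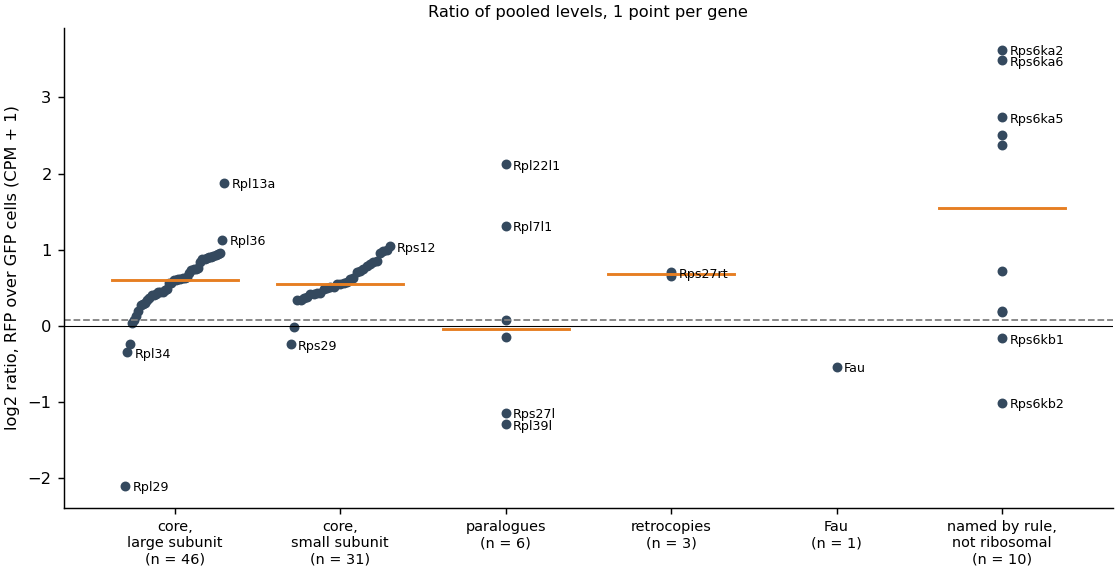
Log2 ratio of pooled CPM + 1, RFP over GFP cells, 1 point per gene by class. Orange lines are class medians (classes of 3 or more), the dashed grey line is the median of all 13927 genes at 0.08. Core genes form a narrow band around 0.56 with Rpl29 far below and Rpl13a above, while paralogues and the kinases spread widely.

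Rpl29 was the exception on the low side. It encodes a large-subunit protein that mice can live without. Its level was 0.316, 176 and 461 CPM in the lowest, median and highest GFP cell and 0, 42.2 and 150 CPM in the RFP cells. All 55 RFP cells lay below the GFP median, and 37 of 40 GFP cells lay above the RFP median. Pooled, it was 197 CPM in GFP and 45.4 CPM in RFP cells, a log2 ratio of -2.10, and -2.065 without the 5 cells above the mitochondrial limit. In the authors' deposited table its log2 fold change was -2.315. The next lowest were Rpl34 at -0.35, Rps29 at -0.24, Rpl41, the gene of the shortest ribosomal protein, at -0.24, and Rps10 at -0.02.

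The highest ratio was that of Rpl13a, whose product also silences inflammatory messengers outside the ribosome. Its cells ran from 0 over a median of 10.98 to 139 CPM in GFP and from 0 over 49.2 to 319 CPM in RFP cells, a log2 ratio of 1.88, and 45 of 55 RFP cells lay above the GFP median. Pooled, Rpl13a was at 19.1 CPM in GFP and 73.05 CPM in RFP cells. Of the core genes, only Rpl24 and Rps10 were lower in GFP cells. Whether reads shared with other copies bear on this low level was not tested. Rpl36 stood at 1.13, with medians of 135 and 306 CPM, and 53 RFP cells above the GFP median. Rps12, which in flies is needed for the elimination of cells short of other ribosomal proteins, stood at 1.05, with medians of 160 and 281 CPM. Rps4x on the X chromosome followed at 0.998, with 49 of 55 RFP cells above the GFP median of 636 CPM, and Rps21 at 0.99, with 52. Groups overlapped in each of these genes. The other 67 core genes lay between the ratios of Rps10 and Rps21.

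Other genes that serve the ribosome were set beside them as lists, whose counts are read against the 25% of all genes at 1 or more and the 21.9% at -1 or less. Of 40 genes of ribosome assembly in the nucleolus, 23 had a log2 ratio of at least 1 and 1 of at most -1, with a median of 1.11. Npm1, which chaperones ribosomal particles, was at 1403 CPM in GFP and 4361 CPM in RFP cells, and Dkc1, the pseudouridine synthase of ribosomal RNA, at 194 and 1094 CPM. Rrp12, which acts in export of the subunits, went the other way at 45.1 and 2.04 CPM. The 36 translation factors had a median of 0.35, or of -0.20 from the mean of the cells' log2 values, with 5 (13.9%) at 1 or more, among them Rack1, a protein of the small subunit's head, at 803 and 1827 CPM. The 16 genes of RNA polymerase I, which makes ribosomal RNA, stood at a median of 0.41, with 4 at 1 or more, the share of all genes, and 1 at -1 or less. Of 20 growth regulators, 7 (35%) were at 1 or more and 4 (20%) at -1 or less, the latter close to the share of all genes. Myc was at 7.48 and 37.0 CPM and Mycn at 14.45 and 78.8 CPM, both activators of ribosome genes, while Mtor was at 32.04 and 23.9 CPM and Larp1 at 70.3 and 97.35 CPM. The 78 genes of the mitochondrial ribosome, which is built apart from the cytosolic one, had a median of -0.16, or of -0.83 from the mean of the cells' log2 values, with 3 (3.85%) at 1 or more and 10 (12.8%) at -1 or less.

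Among the paralogues, Rps27l and Rps27 differed between the colours in opposite directions. Rps27l, a target of p53, ran from 42.6 over a median of 2363 to 4760 CPM in GFP cells and from 50.2 over 985.5 to 2802 CPM in RFP cells. Rps27 ran from 193 over 501 to 1110 CPM in GFP and from 1.465 over 928 to 6273 CPM in RFP cells. Their log2 ratios were -1.14 and 0.85. Rps27l therefore held 81.6% of the reads of the pair in GFP cells (exact 95% interval 81.5% to 81.7%, counting error only) and 52.7% in RFP cells (52.6% to 52.8%), a share of reads that is not corrected for transcript length. GFP cells lay between 68.4% and 91.9% except cell 27 at 7.72%, and 47 of 55 RFP cells lay below 68.4%. Trp53, the p53 gene, was at 23.2 CPM in GFP and 390 CPM in RFP cells and Mdm2, its inhibitor, at 386 and 148 CPM. With the authors' scaling of cells the log2 ratio of Rps27l was -0.58 and that of Rps27 2.25.

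Rpl39l, known from the testis and ESCs, was the other paralogue with a ratio of -1 or less. It had no read in 31 of 55 RFP cells and in 2 of 40 GFP cells. Its highest RFP cell was at 433.5 CPM and its GFP cells had a median of 97.3 CPM, with a pooled log2 ratio of -1.29 and one of -3.73 from the mean of the cells' log2 values. It held 34.3% of the reads of the Rpl39 pair in GFP and 13.6% in RFP cells, where Rpl39 itself was at 222 and 296 CPM. Rpl22l1, the partner gene that Rpl22 holds down in mouse cells, went the opposite way. Its median cell was at 11.6 CPM in GFP and 33.7 CPM in RFP cells, 21 RFP cells were above the highest GFP cell of 48.8 CPM, and its share of the Rpl22 pair was 5.92% and 17.5%. Rpl22 itself was also higher in RFP cells, at 177.5 CPM pooled in GFP and 245.6 CPM in RFP cells, a log2 ratio of 0.47. Rpl7l1 was at a median of 113 and 260 CPM, and held 14.2% and 21.3% of the Rpl7 pair.

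The remaining 2 paralogues had pooled log2 ratios of -0.14 and 0.07. Rpl36al, an autosomal copy of X-linked Rpl36a, was at 13.7 and 12.3 CPM and held 4.745% and 3.17% of its pair. Its log2 fold change in the authors' deposited table had the other sign, at 1.01. Rpl36al made up 98.5% and 90.2% of its pair in RFP cells 6 and 14, both above the mitochondrial limit, and at most 12.99% in any other RFP cell. Rpl10l, which replaces X-linked Rpl10 in male meiosis, was at 18.4 and 19.4 CPM and was unread in the median cell of both groups. Rpl3l and Rps4l have no row in the table and were not analysed here.

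**Figure D3:**
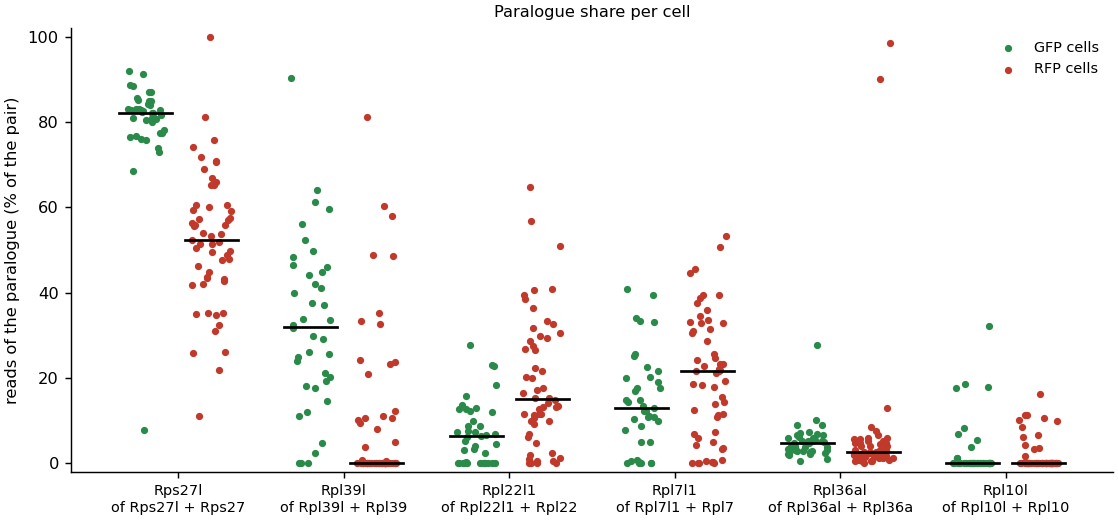
Reads of each paralogue as a percent of the reads of the paralogue and its core partner, 1 point per cell, with the group median as a black line. The median of Rps27l was 82.2% in GFP and 52.3% in RFP cells, that of Rpl39l 32.05% and 0%, and that of Rpl22l1 6.30% and 15.05%.

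Fau was lower in RFP cells, unlike most core genes. It encodes the small-subunit protein S30 fused to a ubiquitin-like protein. GFP cells ran from 351 over a median of 1049 to 2171 CPM and RFP cells from 27.02 over 743 to 1809 CPM, a log2 ratio of -0.53, with 34 of 40 GFP cells above the RFP median. Of the retrocopies, Rps27rt was at 4.61 and 8.125 CPM, Rpl35rt at 63.85 and 103 CPM and Rps23rg1 at 3.20 and 5.64 CPM, and their ratios of 0.66 to 0.70 lay near those of the core genes. Reads of a copy and its parent can be exchanged, and the sources used here do not say how such reads were counted.

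The kinase genes caught by the rule for their names did not behave as 1 group. S6 kinases act downstream of mTOR and RSK kinases, the Rps6ka genes, downstream of ERK or its relatives. Rps6ka6 was at 7.96 CPM in GFP and 99.5 CPM in RFP cells, a log2 ratio of 3.49, but it had no read in 32 of 40 GFP and 35 of 55 RFP cells. Rps6ka2 was at 0.0268 CPM (0.00985 to 0.0584, exact Poisson interval) and 11.6 CPM, with reads in 12 RFP cells, and Rps6ka5 at 6.20 and 47.1 CPM. Rps6kb1, which encodes the main kinase of the S6 protein, stood at -0.16 and Rps6kb2, its close relative, at -1.01, with reads in 8 RFP cells. Rps6kl1 and Rps6kc1 were at 2.51 and 2.38, each read in fewer than 10 cells of either group, Rps6ka1 at 0.73, Rps6ka3 at 0.19 and Rps19bp1 at 0.18. Rps6kb1, Rps6ka1 and Rps19bp1 had reads in 30 to 37 of the 40 GFP and 34 to 49 of the 55 RFP cells, while the other kinase genes were read in at most 21 GFP and 20 RFP cells. Of the 77 core genes, 73 had a read in every GFP cell and 64 in every RFP cell.

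From cell to cell, core genes varied less than other genes within the central range of core levels. Their median coefficient of variation (SD over mean of CPM) was 0.47 over GFP and 0.59 over RFP cells, against 0.69 and 1.01 over 1141 and 1418 other genes within the central 90% of core levels. Without the 5 cells above the mitochondrial limit it was 0.38 and 0.51 against 0.70 and 0.93, and 73 and 71 of the 77 core genes lay below those medians. Over all cells, the other genes were taken from mean levels of 160 to 1286 CPM in GFP and 139 to 2193 CPM in RFP cells. They were not matched to core genes in level within that range, and the part of level in the contrast was not tested. Rpl4, whose protein lines the exit tunnel, was the steadiest by the mean of both colours, with coefficients of 0.38 and 0.35. Rplp0, the base of the ribosomal stalk, at 0.36 and 0.43, and Rps3a1, at 0.32 and 0.47, were also among the 5 steadiest. Rpl4 was at 1718 CPM in the median GFP cell and 2862 CPM in the median RFP cell, and 36 RFP cells were above the highest GFP cell of 2790 CPM.

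Among the most variable core genes, Rpl36, Rps12 and Rpl37a stood far higher in single cells. Rpl36 reached 4197 CPM in GFP cell 27, 9.12 times the next GFP cell, and its coefficient was 2.63 with and 0.50 without that cell. Rpl37a was 5.35 times and Rps12 3.297 times the next GFP cell there. Without the 5 cells Rpl37a had coefficients of 0.31 in GFP and 0.65 in RFP cells, and Rps12 0.77 and 0.93, the latter pair above the core medians. In RFP cells Rpl36 was highest in cell 22 at 4367 CPM, which is not above the mitochondrial limit, and its coefficient was 1.57 with and 1.403 without the 4 cells that are. Rps10 and Rpl24, mutated in the Belly spot and tail mouse, had few reads. Rpl24 was at 0.268 CPM (0.205 to 0.345) in GFP and 0.553 CPM in RFP cells and Rps10 at 3.71 and 3.66 CPM. The coefficient of Rps10 was 1.63 in GFP and 2.51 in RFP cells, where cell 39 was 3.42 times the next cell. The part of low counts in this spread was not tested.

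Core genes varied together from cell to cell, within both colours. Each was correlated over cells, on log2(CPM + 1), with the mean of the other core genes. These correlations are descriptions: the genes of a cell share its library and depth, and cells may share an embryo. The median was 0.37 over 40 GFP and 0.65 over 55 RFP cells, where all other genes detected in 50% or more of a colour's cells had medians of -0.03 and 0.15. The order of the colours turned on single cells. Without RFP cell 6 the RFP median was 0.36, and without GFP cell 27 the GFP median was 0.51. Without all 5 cells above the mitochondrial limit, the medians were 0.51 and 0.39, with -0.08 and 0.00 for the other genes. In that set 64 core genes in GFP and 42 in RFP cells exceeded the 95th percentile of the other genes, which was 0.27 and 0.32. Among other genes of like level the medians were -0.05 and 0.04. The first principal component of the core genes took 45.1% of their variance over all RFP cells, 24.2% without cell 6, and 33.9% over GFP cells.

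The subunits moved as a pair. The share of reads on large-subunit genes and that on small-subunit genes had a Pearson correlation of 0.96 over GFP and 0.94 over RFP cells (Spearman 0.90 and 0.95), and 0.90 and 0.92 without the 5 cells. In 38 of 40 GFP and 53 of 55 RFP cells both shares lay on the same side of their medians. The ratio of large to small reads had a median of 1.21 in GFP (0.846 to 1.35) and 1.23 in RFP cells (0.971 to 1.63). Translation factors had median correlations with the core mean of 0.08 in GFP and 0.37 in RFP cells, and of -0.02 and 0.17 without the 5 cells. Ribosome assembly genes stood at -0.04 and 0.23, and at -0.03 and 0.03 without them. Mitochondrial ribosomal protein genes stood at -0.03 and 0.17, and at -0.09 and -0.01. Each of these medians was below that of the core genes in the same cells.

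**Figure D4:**
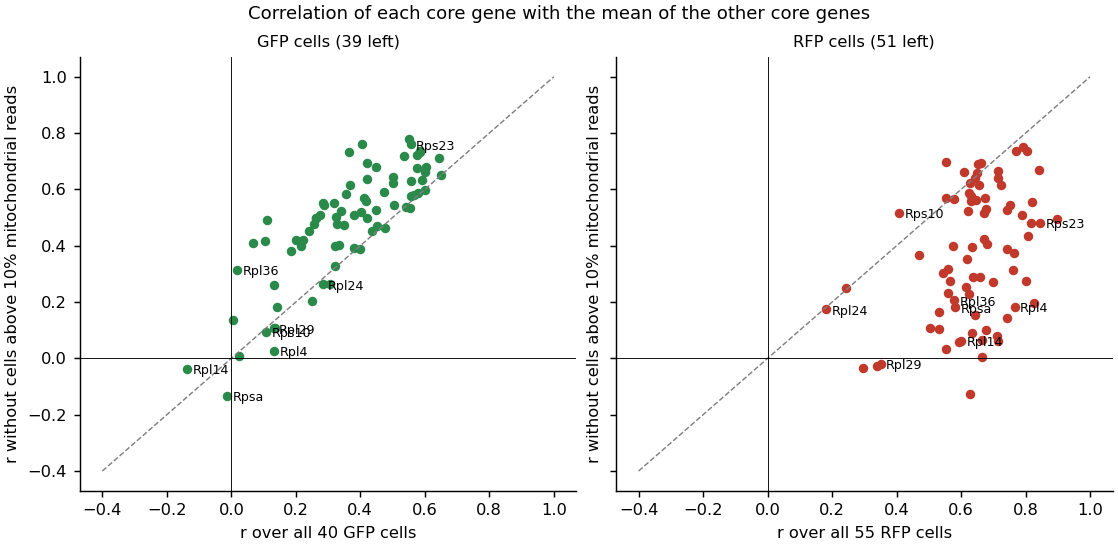
Pearson correlation of each of the 77 core genes with the mean of the other core genes, over all cells of a colour (x) and without the cells above 10% mitochondrial reads (y), with the dashed line marking equality. Most GFP points lie above the line and most RFP points below it; the RFP median is 0.65 over all cells and 0.36 without cell 6.

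Single genes differed in how closely they followed. By the mean of both colours, Rps23, Rpl17 and Rps21 were among the 5 that followed the other core genes most closely. Rps23, whose protein helps the ribosome read the code accurately, was at 0.56 and 0.85 over all GFP and RFP cells and 0.76 and 0.48 without the 5 cells. Over all cells, Rpl14, Rpl24, Rpl29, Rps10 and Rpsa followed least. Rpl14 was at -0.14 and 0.60 over all cells and -0.04 and 0.06 without the 5 cells. Rpsa, also known as a laminin receptor precursor, was at -0.01 and 0.58, and at -0.13 and 0.18 without them, although both genes had reads in every cell. Rpl29 was at 0.13 and 0.35, and at 0.11 and -0.02 without them. That set changed the order: Rps10 was at 0.09 and 0.52 and Rpl24 at 0.26 and 0.175. By the mean of both colours, other core genes then followed less than Rps10 and Rpl24. Among them were Rps2 at 0.008 and 0.09, Rpl4 at 0.03 and 0.18, Rpl15 at 0.27 and -0.04 and Rplp0 at 0.18 and 0.06. Among 889 other genes detected in 90% or more of the cells in both colours, those most like the core mean by the lower of their 2 correlations were Npm1 (0.63 in GFP and 0.78 in RFP cells), Fau (0.60 and 0.73) and Serbp1 (0.52 and 0.72), a protein bound to idle ribosomes, followed by Arpp19, Atp5j, Snrpf, Lsm7 and Mrfap1. Without the 5 cells the RFP values of Npm1 (0.34), Fau (0.53), Serbp1 (0.36), Arpp19 (0.03), Atp5j (0.36) and Lsm7 (0.14) were lower. Those of Snrpf (0.64) and Mrfap1 (0.57) were higher. In GFP cells Npm1 was then at 0.64, Fau at 0.65 and Serbp1 at 0.60. The most unlike were mt-Nd5, mt-Co1, Arcn1, Wapl and mt-Co3, and of these Arcn1, a coat protein of the Golgi, was at -0.29 and -0.185 and mt-Co1 at -0.12 and -0.03 without the 5 cells. The other 3 were then above 0 in RFP cells, mt-Nd5 at 0.07, Wapl at 0.13 and mt-Co3 at 0.19, so the order rests on those cells.

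Some technical measures moved with the core share. Cells with a higher share had fewer genes detected, with a Pearson correlation of -0.42 over 39 GFP and -0.47 over 51 RFP cells below the mitochondrial limit, where the correlation with read depth was 0.05 and -0.31. The share and the mitochondrial percent had a correlation of 0.13 in GFP and 0.54 in RFP cells of that set. Between the colours, the median number of genes detected was 4527 in RFP and 5209 in GFP cells, so it was lower where the core share was higher. The part of these measures in the core share was not tested. Epiblast markers stood at -0.12 and -0.28 with the core share within GFP and RFP cells, and trophectoderm markers at -0.24 and 0.09.

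At the DNA level, the starts of core genes were little methylated in the 3 cultured populations. The mean level of the windows within 500 bases of the start had a median over 57 core genes of 3.33% in Actin-RFP ESCs, 3.73% in Gjb2 35delG ESCs and 5.22% in MEF. The 10676 genes of the expression table with a start and values had medians of 4.62%, 6.13% and 8.88%. All 57 core genes were below 10% in Actin-RFP ESCs (74.8% of the table's genes were), 55 in Gjb2 35delG ESCs (63.2%) and 40 in MEF (52.7%). A window of 1000 bases to either side gave 4.05%, 4.76% and 15.1%. With 1 library per population, and none from blastocyst cells, the populations were not compared by a test.

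In MEF, 7 of the 57 core genes were at 20% or more, and none in either ESC line. The upper quartile in MEF was 10.2% for core genes and 26.4% for the 10676 genes of the table. A larger share of the table's genes than of the core genes therefore passed 20% there. Rpl22 was at 49.3% over its 2 annotated starts and Rpl5, whose protein carries 5S RNA and restrains Mdm2, at 38.5%, against 4.04% and 2.31% in Actin-RFP ESCs. The others were Rps4x at 27.7%, Rplp0 at 23.8%, Rps24 at 21.5%, Rps10 at 20.4% and Rpl38 at 20.3%. The 4 core genes on the X chromosome, Rps4x, Rpl10, Rpl36a and Rpl39, ranged from 16.04% to 27.7% in MEF, beside a median of 27.4% over 363 X-linked genes of the table, and from 1.49% to 4.21% in Actin-RFP ESCs. The paralogues split. Rpl10l was at 95.4%, 62.7% and 19.6% in MEF, Gjb2 35delG and Actin-RFP ESCs and Rpl39l at 72.4%, 65.1% and 25.3%, while the other 4 were below 10% in every library. Over 26000 genes with a start and values, in the expression table or not, the medians were 45.3%, 36.7% and 17.1% in the same order. Among the kinase genes, Rps6ka6 on the X chromosome was at 51.3%, 26.99% and 27.9%. Rps6ka1 on chromosome 4 was at 60.4%, 30.9% and 16.3%, and Rps6kl1 on chromosome 12 at 26.3%, 16.9% and 8.72%. Rps27rt, whose start carries the TOP run shown above, was at 92.0%, 75.8% and 34.8%.

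**Figure D5:**
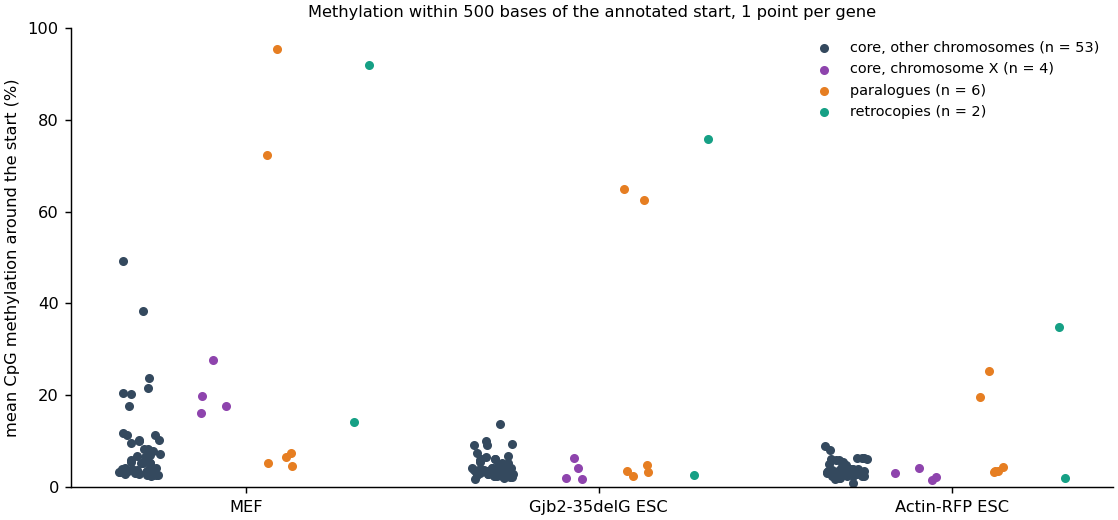
Mean CpG methylation of the windows within 500 bases of the annotated start in the 3 bisulfite libraries, 1 point per gene. Core genes sit at 13.7% or less in both ESC lines, with X-linked and a few other core genes higher in MEF. Rpl10l, Rpl39l (orange) and Rps27rt (green) lie at 19.6% or more in every library; the kinase genes are not drawn.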

How the data were processed

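Single blastocyst cells were picked, and their messenger RNA was amplified as full-length cDNA and sequenced in pairs of 150 bases, per the labels' protocols, with no molecular identifiers, so intervals cover counting error only. The submitters' processing notes name, without roles, the build mm10 and the tools DESeq2 1.30.0, featureCounts 2.0.0, STAR 2.7.3a, fastp 0.20.0, deepTools 3.3.1 and StringTie 2.0. The deposited expression signal is a read count divided by 1 factor per cell, as its steps show: 100% of the values came out as whole reads within 0.01, and these reads were turned into CPM, scaled to the same total per cell. The authors' log2 fold changes were used as a description, and the authors' p-value and score columns were not used. The deposited bisulfite files give a methylated fraction and the count of methylated and unmethylated calls per window of 200 bases, with aligner and caller not given in the sources used here. Windows within 500 bases of a RefSeq start were averaged, and windows with at least 10 calls were an alternative.

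Pooled CPM is the summed reads of a group, and a log2 ratio is taken after adding 1. There is no spike-in, so no level is an amount per cell. Replicate numbers only name cells, 0 pairs of cells held identical values, and cells of 1 colour may come from 1 embryo. Of the gene IDs, 13922 matched a symbol and 5 did not, and 4 pseudogene names were left out. The members and lists were chosen with earlier results of these data known. The named genes are the 5 highest and 5 lowest core genes by ratio, by mean coefficient of variation and by mean correlation, every paralogue, every row that encodes no ribosomal protein, Fau, the 8 other genes most like and 5 most unlike the core mean, and members of the lists. A further part of that rule, levels per length, could not be run without exon lengths, so levels of genes are set side by side only as shares of a pair and, uncorrected for length, to choose other genes within the range of core CPM for spread and correlation. The log2 ratio, correlation and thinning steps were tested on simulated data, and the coefficient of variation was not. Python 3.11.15, numpy 2.4.6, pandas 2.3.3, scipy 1.17.1 and matplotlib 3.10.9 were used. Alternatives covered the pseudocount, the scaling of cells, a minimum level, cells above 10% mitochondrial reads, thinning, rank correlation and the methylation window. A few named genes are not reported here. Double-coloured cells, later embryos and amplicons were not used here.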

Additional observations from a re-analysis of the deposited data

How the results depend on the processing

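Of 88 values recomputed under another choice, 70 stayed near the main one (within 0.1 for the median log2 ratio, 10% for correlations, coefficients and methylation, 1.5 times for counts, and 1 SD between cells for shares) and 18 moved. None changed sign, but shares, counts, coefficients of variation and methylation cannot. The median of the translation factors, not among the 88, went from 0.35 to -0.20 with the mean of the cells' log2 values. The SD tolerance was loose for paralogue shares, where a median cell at 0% could count as near. Pooled shares there were 13.6% for Rpl39l in RFP cells, and 3.10% and 1.98% for Rpl10l in GFP and RFP cells. With the authors' scaling of cells the median log2 ratio of the core genes was 0.77, and 30 of 77 were at 1 or more, against 30.7% of all genes. With the mean of the cells' CPM 7 were, against 25.5% of all genes. The median correlation with the other core genes in GFP cells was 0.51 without the cell above 10% mitochondrial reads, 0.62 with the authors' scaling and 0.48 by rank. In RFP cells it was 0.39, 0.52 and 0.47, and 0.36 without replicate 6, a choice made after seeing the data. The median coefficient of variation was 0.38 in GFP and 0.51 in RFP cells without the cells above the mitochondrial limit, and 0.77 and 2.10 with the authors' scaling. Methylation within 1000 bases of the start was 4.05% in Actin-RFP ESCs, 4.76% in Gjb2 35delG ESCs and 15.1% in MEF. The cause of these shifts was not tested. From the mean of the cells' log2 values, the median of all genes was -0.06 and that of the core genes 0.38. All 40 GFP and 55 RFP cells had at least 500000 reads, to which reads were thinned. No paired analysis was possible because replicate numbers name single cells and no result comes from a test. Rpl24 and Rps10 rest on few reads, and each methylation library stands alone.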

Other observations

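Of the 4 measured genes of 8 listed for feeder fibroblasts, the summed level had a median of 0 CPM in both colours, with highest cells at 154 CPM in GFP and 197 CPM in RFP cells. Within a colour, Rps27l and Trp53 had a correlation over cells of 0.01 in GFP and 0.04 in RFP cells below 10% mitochondrial reads (0.15 and 0.05 over all cells). Rps27l and Mdm2 had one of -0.09 and 0.06 (0.34 and -0.14 over all cells). These cover 39 and 51 cells, each point being the library of 1 cell.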
